A study of Mus musculus with 12 samples.

Results

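The 10 genes described here take up choline, build phosphatidylcholine from it and oxidise it. They were chosen by name from what their products are known to do, when earlier results of these data were already known. All 10 were found among the 17710 genes of the table and passed the filter on low counts in every comparison. Liver RNA was sequenced from 12 male mice of wild-type genotype, 3 in each of 4 groups. The groups were C57BL/6J mice on CDAHFD, a high-fat diet that is deficient in choline and gives its protein as L-amino acids, C57BL/6J mice on normal diet (ND), ICR mice on CDAHFD and ICR mice on ND, each fed for 10 weeks from an age of 8 weeks. C57BL/6J is an inbred strain and ICR an outbred stock, so ICR mice are not genetically identical to each other. CDAHFD has no added choline, but it is also rich in fat, lowered in methionine and made with free amino acids. A difference between the diets therefore cannot be assigned to choline alone. Each sample is a piece of whole liver, in which fewer cells of a type and less RNA per cell cannot be told apart.

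Phosphatidylcholine is the main phospholipid of cell membranes and of the shell of very low density lipoprotein, and the liver makes it along a pair of routes. In the CDP-choline route choline is taken up, phosphorylated by a choline kinase, activated to CDP-choline and joined to diacylglycerol. In the other route, which is mainly a hepatocyte function, phosphatidylethanolamine is methylated by Pemt. Choline that is not used for phospholipid is oxidised to betaine in mitochondria. A diet without choline is known to cause fatty liver in rodents.

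Pemt and Chpt1 stand for the 2 routes among the genes that fell on CDAHFD, and Slc44a1 is the member that differed between the strains on either diet, so the sequence upstream of these 3 genes is shown. RefSeq promoter windows on GRCm38.p6, 250 bases before to 50 after a start, matched 9 of the 10 genes with 17 windows, and Aldh7a1 was not among them. The bases printed overlap no annotated exon of the gene. In GENCODE on GRCm38 the Pemt gene spans chr11:59970614-60046489, so its RefSeq start lies inside these bounds, whereas Chpt1 spans chr10:88452745-88504073 and Slc44a1 chr4:53440413-53622478. The printed stretches cover chr11:60040189-60040438 on the minus strand for Pemt, chr10:88504074-88504220 on the minus strand for Chpt1 and chr4:53440163-53440412 on the plus strand for Slc44a1. Capitals mark the GC box (GGGCGG) and the CCAAT box on either strand. The sequences are those of the reference genome.
Pemt: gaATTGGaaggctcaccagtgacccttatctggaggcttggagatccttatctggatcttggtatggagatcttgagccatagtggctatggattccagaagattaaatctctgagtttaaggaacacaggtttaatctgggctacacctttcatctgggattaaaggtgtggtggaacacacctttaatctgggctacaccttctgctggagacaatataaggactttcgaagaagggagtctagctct
Chpt1: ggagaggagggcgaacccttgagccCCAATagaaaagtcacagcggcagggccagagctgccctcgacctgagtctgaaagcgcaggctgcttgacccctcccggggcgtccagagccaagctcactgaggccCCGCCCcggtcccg
Slc44a1: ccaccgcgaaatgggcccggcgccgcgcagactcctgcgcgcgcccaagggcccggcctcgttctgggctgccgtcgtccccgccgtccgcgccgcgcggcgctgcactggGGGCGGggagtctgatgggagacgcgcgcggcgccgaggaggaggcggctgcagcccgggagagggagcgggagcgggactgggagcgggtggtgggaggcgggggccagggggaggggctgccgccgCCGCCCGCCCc
The Pemt stretch had 44.8% G and C bases, 0 GC boxes and 1 CCAAT box. The Chpt1 stretch had 67.3% G and C bases, 1 GC box and 1 CCAAT box, and the Slc44a1 stretch had 81.2%, 3 GC boxes and 0 CCAAT boxes. Over whole windows and both strands, 8 of the 9 matched genes had a GC box in at least 1 window (11 of 17 windows), and Pemt was the exception. Of all 32851 windows in the RefSeq table, 35.7% held a GC box. A CCAAT box was in 6 of 17 windows, against 37.4% of all windows. The TATA box (TATAAA) was in 1 of 17 windows, that of Chkb, against 13.6% of all, and the nuclear receptor half-site AGGTCA was in 1 of 17, of Pcyt1a, against 16.3%. These are letter matches and not binding sites.

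Gene counts summed to between 22245245 and 32214782 per library, and every CDAHFD library held more counts than every ND library. Counts were scaled by TMM, a method that sets most genes to no change, and are given as CPM, read counts set to a common library size. Its factors were 1.17 to 1.43 in CDAHFD libraries and 0.76 to 0.85 in ND libraries. Scaling by library size only moved the median of all genes on the log2 scale to 0.66 from 0.00 in C57BL/6J and to 0.59 from -0.01 in ICR, so all directions below are relative to the bulk of genes. Summed CPM of 10 hepatocyte markers, among them Alb and Cps1, lay between 48380 and 82030 on CDAHFD and between 113400 and 135000 on ND in C57BL/6J, and at 70630 to 83570 on CDAHFD and 90610 to 130600 on ND in ICR. Of these markers, 8 of 10 fell in each strain, with medians of -1.19 (C57BL/6J) and -0.945 (ICR) on the log2 scale and none of the 10 at 0 in any group. Of 10 stellate cell and myofibroblast markers 9 rose in each strain. Their summed CPM lay between 1846 and 2985 on CDAHFD and between 271.1 and 337.9 on ND in C57BL/6J, and at 2028 to 2643 on CDAHFD and 175.8 to 376.8 on ND in ICR. Macrophage markers rose in 7 of 9 tested in C57BL/6J, where 1 fell, and in 6 of 9 in ICR. The defining marker Csf1r was at 0 in all 3 libraries of C57BL/6J on ND and of both ICR groups. In ICR on CDAHFD Adgre1 was at 35.1 to 67.7 CPM and Cd68 at 66.8 to 183.5 CPM. The 0 of Csf1r is therefore not read as an absence of macrophages, and its source was not tested. Cholangiocyte markers rose in 6 of 8 in C57BL/6J and in 7 of 8 in ICR, lymphocyte markers in 4 of 8 in C57BL/6J and 3 of 8 in ICR, and endothelial markers in 1 of 7 in each strain. The part of these other cell types in the differences of the 10 genes was not tested.

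Levels of different genes were set side by side by the deposited FPKM, which is per gene length. FPKM was not scaled by TMM, so it is read within a group and not between the diets. The gene length implied by counts and FPKM varied between libraries, by up to 31.0% for Chkb. Aldh7a1 and Pemt had the highest FPKM of the 10 in every group, and Chkb the lowest. In C57BL/6J on CDAHFD, Pemt averaged 68.2 ± 4.53 FPKM, followed by Aldh7a1 at 49.2 ± 8.65, Lpcat3 at 42.8 ± 5.03, Cept1 at 40.7 ± 4.22 and Chdh at 37.5 ± 1.86 (SD, n = 3). Lower came Chpt1 at 19.3 ± 0.469, Pcyt1a at 15.6 ± 0.868, Chka at 3.56 ± 1.05, Slc44a1 at 1.80 ± 0.651 and Chkb at 0.383 ± 0.0845 FPKM. The ranges of the 3 libraries of Aldh7a1, Lpcat3, Cept1 and Chdh overlapped in that group, so their order is not resolved. On ND the first place was held by Aldh7a1, at 87.3 ± 7.75 FPKM in C57BL/6J against 75.8 ± 3.55 for Pemt, and at 80.1 ± 15.5 in ICR against 72.9 ± 17.4 for Pemt. The ranges of these 2 genes overlapped on ND in both strains. In ICR on CDAHFD Pemt led, with 69.7 ± 0.382 FPKM against 56.2 ± 5.49 for Aldh7a1.

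**Figure D1:**
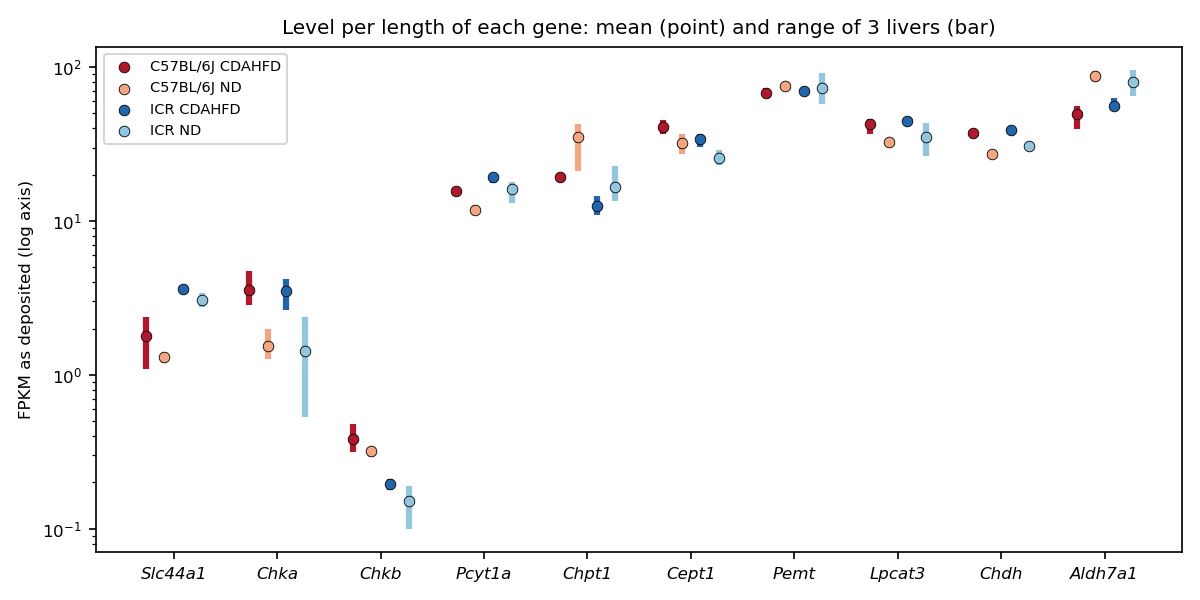
Level of each of the 10 genes in FPKM as deposited, without TMM scaling (log axis), with the mean (point) and the range (bar) of 3 livers in each of the 4 groups. Pemt and Aldh7a1 sit highest in every group, at means between 49.2 and 87.3 FPKM, and Chkb lowest, at 0.152 to 0.383 FPKM.

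CDAHFD was compared with ND within each strain to find which steps of choline use changed. In C57BL/6J, Pemt, Chpt1 and Aldh7a1 fell and none of the 10 rose, so 3 of 10 genes were called (edgeR's quasi-likelihood test, Benjamini-Hochberg adjusted p under 0.05). Over all 13402 genes tested there, 47.2% were called, 26% higher and 21.2% lower. In ICR the 3 genes that fell were again Pemt, Chpt1 and Aldh7a1, against 36.7% of 13319 genes called, 20.1% higher and 16.5% lower. Read against that background, the members were not called more often than genes in general in either strain. The median log2 fold change of the 10 genes was -0.28 in C57BL/6J, against 0.00 for all genes, and -0.31 in ICR, against -0.01. The 2 diet comparisons share no samples.

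Choline enters cells through Slc44a1, a choline transporter of the plasma and mitochondrial membranes. In C57BL/6J it was at 5.32, 10.5 and 12.2 CPM on CDAHFD and at 10.4, 11.04 and 9.53 CPM on ND, and the groups overlapped, with 1 CDAHFD liver below all others. Its log2 fold change of -0.14 (SE 0.28, adjusted p = 0.717) missed the threshold. In ICR it was at 17.9, 20.2 and 21.6 CPM on CDAHFD and at 26.3, 23.99 and 26.8 CPM on ND, without overlap, with a log2 fold change of -0.36 (SE 0.13, adjusted p = 0.0638). Without ND replicate 2 the ICR difference was called (adjusted p = 0.0420), and without CDAHFD replicate 1, the low liver, that of C57BL/6J was 0.13. By library size only its sign turned, to 0.49 in C57BL/6J and 0.24 in ICR.

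The choline kinases put the first phosphate on choline. Chka was the only one of the 10 with a positive log2 fold change in either strain, and it kept that sign by library size. It was at 37.7, 28.5 and 24.7 CPM on CDAHFD and 26.4, 19.8 and 17.4 CPM on ND in C57BL/6J, and at 37.9, 33.9 and 25.2 CPM on CDAHFD and 31.8, 7.88 and 19.1 CPM on ND in ICR. The groups overlapped in both strains, and 1 ICR liver on ND stood far below the others. Log2 fold changes were 0.52 (SE 0.21, adjusted p = 0.0646) in C57BL/6J and 0.71 (SE 0.46, adjusted p = 0.260) in ICR, with a 95% interval of -0.37 to 1.80 in ICR. The call in C57BL/6J turned on single livers and on scaling. It was made without CDAHFD replicate 3 or without ND replicate 1 (lowest adjusted p = 0.0295) and by library size only (log2 fold change 1.19, adjusted p = 0.00287), and in ICR it was made without ND replicate 1 (adjusted p = 0.0459).

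Chkb, the other choline kinase, had 10 to 47 counts per library, which limits what can be detected. It was at 1.34, 1.11 and 1.18 CPM on CDAHFD and 1.73, 1.496 and 1.91 CPM on ND in C57BL/6J, with no overlap, and its log2 fold change was -0.50 (SE 0.32, adjusted p = 0.229). In ICR it was at 0.791, 0.663 and 0.636 CPM on CDAHFD and 0.836, 0.563 and 0.938 CPM on ND, with overlap and a log2 fold change of -0.16 (SE 0.37, adjusted p = 0.769). In the GENCODE annotation 50.7% of its exon bases lie also in the gene Gm44502 on the same strand, so its counts are uncertain.

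Pcyt1a makes CDP-choline and is known as the regulated step of that route. It was at 63.4, 76.3 and 77.9 CPM on CDAHFD and 90.0, 84.6 and 83.1 CPM on ND in C57BL/6J, where every CDAHFD liver lay below every ND liver. In ICR it was at 82.6, 103.5 and 98.8 CPM on CDAHFD and 93.2, 138.6 and 135.4 CPM on ND, with overlap. Neither difference passed the test, with log2 fold changes of -0.24 (SE 0.12, adjusted p = 0.144) in C57BL/6J and -0.36 (SE 0.17, adjusted p = 0.136) in ICR. Without ICR ND replicate 1, the ND liver inside the CDAHFD range, the ICR difference was called (adjusted p = 0.0221), and by library size only it was positive in both strains (0.40 in C57BL/6J and 0.26 in ICR) and called in C57BL/6J (adjusted p = 0.0180).

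Chpt1 and Cept1 perform the last step, the transfer of phosphocholine to diacylglycerol, and Cept1 does so with phosphoethanolamine too. Chpt1 was at 115.2, 140.7 and 123.6 CPM in C57BL/6J on CDAHFD and at 428.4, 229.7 and 420.0 CPM on ND. In ICR it was at 95.7, 83.4 and 76.6 CPM on CDAHFD and 225.9, 146.2 and 152.6 CPM on ND. The diet groups did not overlap in either strain, and the spread among ND livers was the wider one. Chpt1 fell by 1.503 on the log2 scale in C57BL/6J (SE 0.24, adjusted p = 9.4e-04) and by 1.03 in ICR (SE 0.21, adjusted p = 0.00913), ratios to ND of 0.353 in C57BL/6J and 0.488 in ICR. By library size only the ICR difference was -0.43 and lost its call (adjusted p = 0.151), while that of C57BL/6J was -0.88 (adjusted p = 0.0128).

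Cept1 changed less. It was at 99.7, 98.6 and 100.7 CPM on CDAHFD and 140.2, 112.2 and 119.4 CPM on ND in C57BL/6J, and at 91.3, 92.03 and 80.5 CPM on CDAHFD and 107.9, 99.3 and 95.7 CPM on ND in ICR. The groups did not overlap in either strain, but neither log2 fold change was called, at -0.31 in C57BL/6J (SE 0.13, adjusted p = 0.0733) and -0.19 in ICR (SE 0.12, adjusted p = 0.23), and both were positive by library size only (0.34 in C57BL/6J and 0.41 in ICR, that of ICR called with adjusted p = 0.0354). In C57BL/6J Cept1 was called lower by the DESeq2 Wald test (-0.32, adjusted p = 0.0422) and in a single fit of all 12 libraries (-0.32, adjusted p = 0.0390). Exons of other genes on the opposite strand cover 24.9% of its exon bases.

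Pemt, the methyltransferase of the second route, was expressed at similar levels in both strains. It was at 111.7, 121.4 and 110.5 CPM in C57BL/6J on CDAHFD, against 192.9, 202.7 and 203.3 CPM on ND. In ICR it was at 117.7, 129.5 and 127.7 CPM on CDAHFD, against 236.6, 161.8 and 195.6 CPM on ND. The groups did not overlap in either strain. Pemt fell by 0.80 on the log2 scale in C57BL/6J (SE 0.12, adjusted p = 7.75e-04), a ratio of 0.575 to ND, and by 0.66 in ICR (SE 0.17, adjusted p = 0.0203), a ratio of 0.632. Both calls depended on the scaling, since by library size only the log2 fold changes were -0.15 (adjusted p = 0.323) in C57BL/6J and -0.06 (adjusted p = 0.787) in ICR. The ICR call was also lost without any 1 of the 3 CDAHFD livers or without ND replicate 3 (adjusted p up to 0.0699), and the fall in the hepatocyte markers stood beside the falls of Pemt, Chpt1 and Aldh7a1 in both strains.

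Lpcat3 remodels phosphatidylcholine by adding polyunsaturated chains to lysophosphatidylcholine. It was at 87.1, 131.2 and 121.5 CPM on CDAHFD and 132.2, 136.6 and 134.2 CPM on ND in C57BL/6J, and at 120.3, 129.7 and 125.1 CPM on CDAHFD and 172.5, 116.9 and 160.0 CPM on ND in ICR. The groups were separate in C57BL/6J by a narrow gap and overlapped in ICR. Log2 fold changes of -0.24 in C57BL/6J (SE 0.16, adjusted p = 0.251) and -0.26 in ICR (SE 0.17, adjusted p = 0.270) did not pass. Without ICR ND replicate 2 the ICR difference did (adjusted p = 0.0291), and by library size only both were positive (0.39, called with adjusted p = 0.0294 in C57BL/6J, and 0.35 in ICR).

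Chdh and Aldh7a1 belong to the oxidation of choline. Chdh is the mitochondrial dehydrogenase that turns choline to betaine aldehyde, and Aldh7a1 is an aldehyde dehydrogenase of lysine breakdown that can also oxidise betaine aldehyde to betaine. Chdh was at 158.9, 202.1 and 196.9 CPM on CDAHFD and 217.0, 214.4 and 195.0 CPM on ND in C57BL/6J, with overlap, and at 205.8, 207.2 and 206.5 CPM on CDAHFD and 223.1, 245.3 and 270.3 CPM on ND in ICR, without. Its log2 fold changes of -0.16 in C57BL/6J (SE 0.15, adjusted p = 0.391) and -0.25 in ICR (SE 0.12, adjusted p = 0.145) were not called. By library size only they were 0.48 in C57BL/6J (adjusted p = 0.0101) and 0.37 in ICR (adjusted p = 0.0287), both called as higher.

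Aldh7a1 held 147.8, 252.7 and 219.9 CPM in C57BL/6J on CDAHFD, against 558.6, 545.2 and 595.3 CPM on ND. In ICR it was at 220.9, 279.0 and 233.9 CPM on CDAHFD, against 599.8, 444.5 and 548.7 CPM on ND. The lowest ND liver lay well above the highest CDAHFD liver in each strain. Aldh7a1 fell by 1.45 on the log2 scale in C57BL/6J (SE 0.21, adjusted p = 5.92e-04) and by 1.12 in ICR (SE 0.17, adjusted p = 0.00356), ratios to ND of 0.366 in C57BL/6J and 0.461 in ICR. It was the only one of the 10 called lower in both strains by library size only (log2 fold changes -0.82 in C57BL/6J, adjusted p = 0.00297, and -0.51 in ICR, adjusted p = 0.0416).

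**Figure D2:**
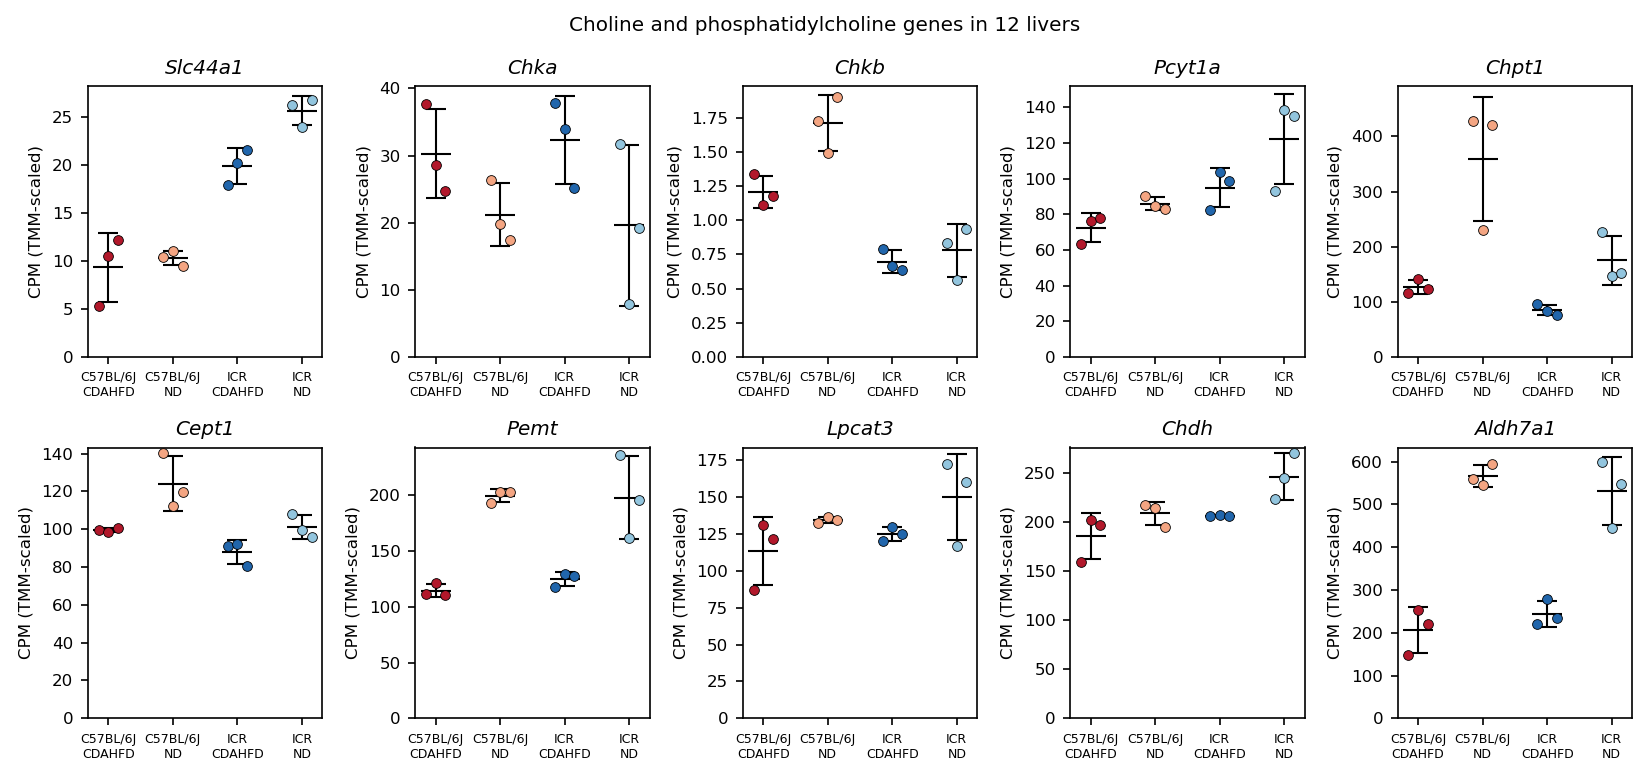
TMM-scaled CPM of the 10 genes in each of 12 livers (points), with the mean and SD of 3 livers, for CDAHFD and ND in C57BL/6J and in ICR. Pemt, Chpt1 and Aldh7a1 are lower on CDAHFD in both strains without overlap, and Slc44a1 is higher in ICR than in C57BL/6J on either diet.

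The CPM of the diet groups did not overlap for 7 of 10 genes in C57BL/6J and 6 of 10 in ICR. Over all genes tested this held for 58.4% in C57BL/6J and 53.4% in ICR, and the members' shares lie near those. By library size only, 6 of 10 genes were called in C57BL/6J, 4 higher (Chka, Pcyt1a, Chdh and Lpcat3) and 2 lower (Chpt1 and Aldh7a1), and 3 of 10 in ICR, 2 higher (Cept1 and Chdh) and 1 lower (Aldh7a1). For all genes the split of calls was then 7568 higher and 717 lower in C57BL/6J, in place of 3486 and 2839, and 6994 higher and 614 lower in ICR, in place of 2679 and 2204.

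**Figure D3:**
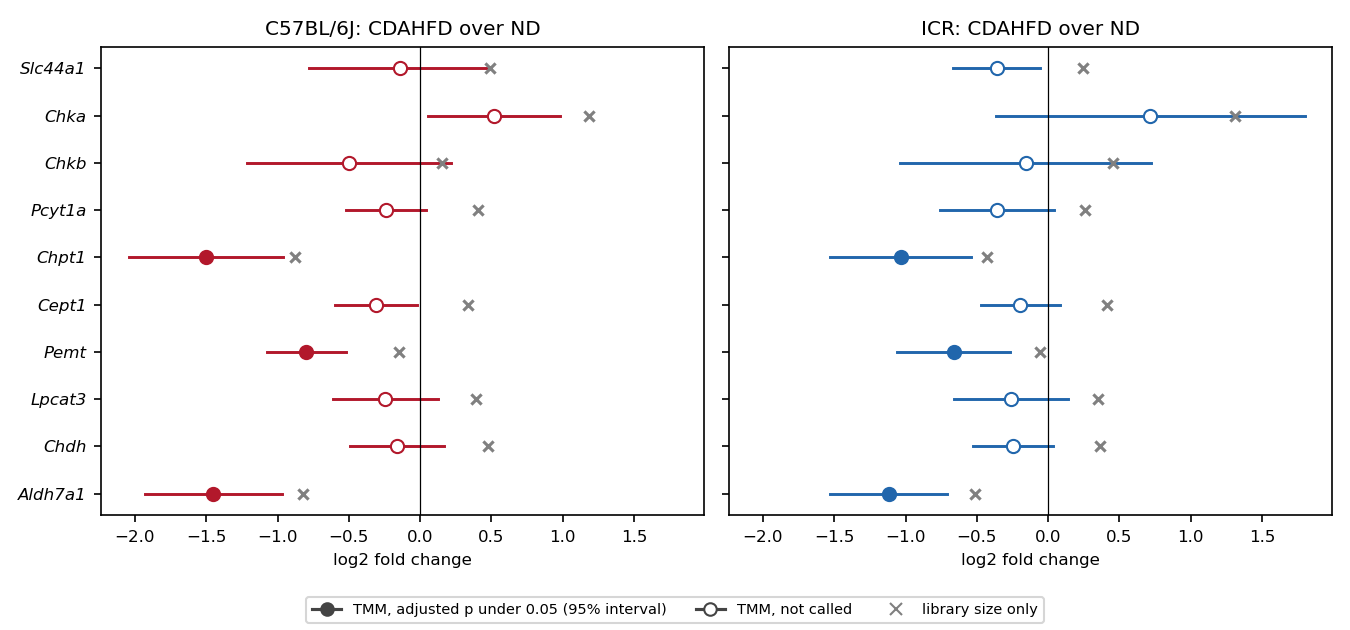
Log2 fold change of CDAHFD over ND for the 10 genes in C57BL/6J and ICR, with 95% intervals after TMM scaling (filled where adjusted p was under 0.05) and the value by library size only (cross). The crosses lie to the right of every circle, and Chpt1 and Aldh7a1 remain clearly below 0 in C57BL/6J under both scalings.

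Whether the diet difference itself depended on strain was tested with the strain by diet term over all 12 livers. None of the 10 genes was called, and none reached an unadjusted p under 0.05, with 0 called in the DESeq2 Wald test as well. Of 13901 genes 0.18% were called (0.122% positive and 0.0575% negative), 25 in all, with 1319 at an unadjusted p under 0.05. The estimates, ICR minus C57BL/6J, ran from -0.22 for Slc44a1 (95% interval -0.95 to 0.50) to 0.47 for Chpt1 (-0.25 to 1.19). For Pemt the estimate was 0.14 (-0.28 to 0.56) and for Aldh7a1 0.34 (-0.27 to 0.94). With 3 mice per group, strain differences within these bounds remain compatible with the data, and the bounds are not a limit of detection.

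ICR was compared with C57BL/6J on each diet to find strain differences in level. Slc44a1 was higher in ICR on both diets, at 19.9 ± 1.86 CPM in ICR and 9.34 ± 3.59 CPM in C57BL/6J on CDAHFD, and at 25.7 ± 1.49 CPM in ICR and 10.3 ± 0.758 CPM in C57BL/6J on ND (SD, n = 3). Its log2 fold changes were 1.09 on CDAHFD (SE 0.24, adjusted p = 0.0122) and 1.32 on ND (SE 0.24, adjusted p = 0.00502), ratios of 2.13 and 2.49. Both calls held when any single liver was left out, with adjusted p up to 0.0489 on CDAHFD. On CDAHFD it was the only one of the 10 called, against 15.6% of all genes (8.13% higher and 7.5% lower), and 6 of 10 did not overlap between strains, against 44.5% of all genes.

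On ND, 4 of 10 genes differed, against 21.5% of all genes (11.3% higher and 10.1% lower). Besides Slc44a1, Pcyt1a was higher in ICR, at 122.4 ± 25.4 CPM in ICR and 85.9 ± 3.64 CPM in C57BL/6J (log2 fold change 0.51, SE 0.16, adjusted p = 0.0392). Chpt1 was lower in ICR, at 174.9 ± 44.3 CPM in ICR and 359.4 ± 112.4 CPM in C57BL/6J (-1.04, SE 0.24, adjusted p = 0.0120). Chkb was lower too, at 0.779 ± 0.194 CPM in ICR and 1.71 ± 0.206 CPM in C57BL/6J (-1.13, SE 0.32, adjusted p = 0.0287). On CDAHFD the same 3 genes had log2 fold changes of 0.39 for Pcyt1a, -0.57 for Chpt1 and -0.79 for Chkb, with adjusted p from 0.0986 to 0.117, and no overlap between strains. Leaving out 1 liver on ND ended the call of Pcyt1a in 5 of 6 cases, all but that of ICR replicate 1 (adjusted p up to 0.139). It ended that of Chkb in 4 of 6, for ICR replicates 2 and 3 and C57BL/6J replicates 1 and 3 (up to 0.0962), and that of Chpt1 in 3 of 6, for ICR replicate 3 and C57BL/6J replicates 1 and 3 (up to 0.0541). The groups did not overlap for 6 of 10 genes on ND, against 35.4% of all genes.

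Pemt did not pass in either strain comparison, with log2 fold changes of 0.13 on CDAHFD (95% interval -0.17 to 0.42) and -0.01 on ND (-0.31 to 0.28). For Aldh7a1 they were 0.24 (-0.18 to 0.67) and -0.09 (-0.52 to 0.33), for Chdh 0.15 (-0.13 to 0.43) and 0.24 (-0.04 to 0.52), and for Lpcat3 0.14 (-0.22 to 0.51) and 0.16 (-0.21 to 0.52). Cept1 had -0.18 (-0.43 to 0.07) and -0.30 (-0.54 to -0.05, adjusted p = 0.0827, against 0.0296 in the DESeq2 Wald test, which called it lower), and Chka 0.09 (-0.71 to 0.90) and -0.11 (-0.93 to 0.71). Chka on CDAHFD turned to -0.01 by library size only.

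**Figure D4:**
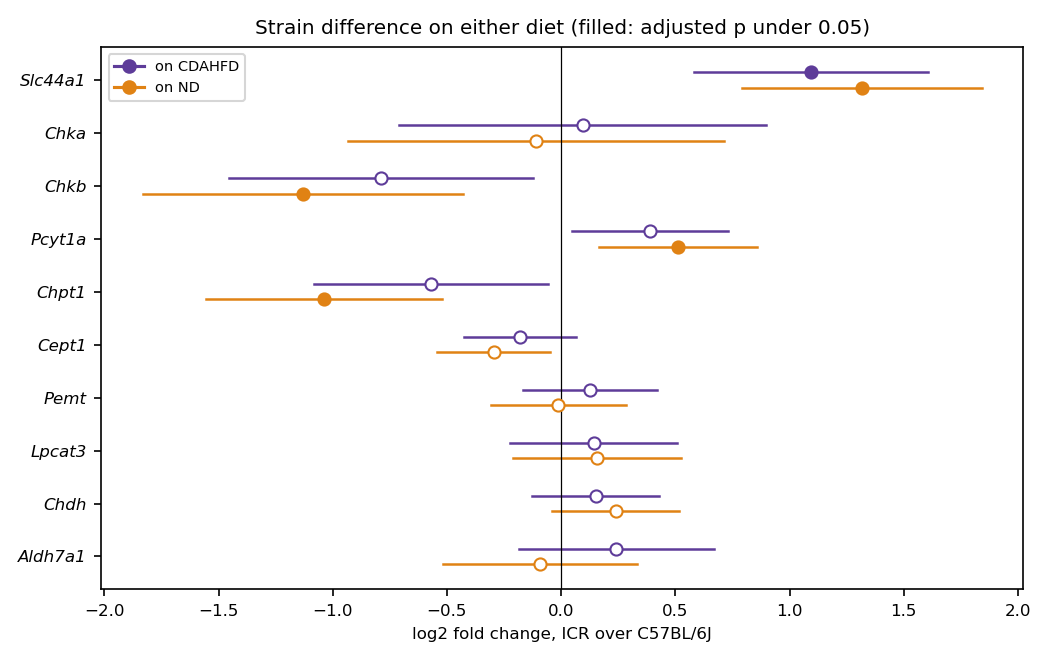
Log2 fold change of ICR over C57BL/6J on CDAHFD and on ND for the 10 genes, with 95% intervals (filled where adjusted p was under 0.05). Slc44a1 is above 0 on both diets, at 1.09 and 1.32, and Chkb and Chpt1 are below 0, filled on ND only.

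Across the 12 livers the log2 CPM of Pemt followed that of Aldh7a1 most closely among the other 9 genes (Pearson r 0.96), then Chpt1 (0.76) and Lpcat3 (0.72), and ran weakly against Chka (-0.37). These livers fall into diet and strain groups, so r describes that split and carries no test. Chpt1 and Cept1 had an r of 0.94, Pcyt1a and Chdh one of 0.90. Among 9786 genes with a mean of at least 5 CPM, those with the pattern most like that of Pemt were Nars2 (0.99), Tprkb (0.99), Pecr (0.99), Lipc (0.98) and Agmat (0.98) over the same 12 livers.

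Around the 10 genes stood 62 other genes of the same pathways in 6 lists. In C57BL/6J 40 of 58 tested were called, 19 higher and 21 lower, and in ICR 30 of 56, 9 higher and 21 lower, with the shares of all genes as above. None was called for the strain by diet term, although DESeq2 called 3 of them. In the list of betaine use 6 of 6 genes fell in each strain, with medians of -1.54 (C57BL/6J) and -1.36 (ICR) on the log2 scale. Bhmt, which uses betaine to remethylate homocysteine, was at 1638, 1898 and 1623 CPM on CDAHFD and 7753, 7102 and 6313 CPM on ND in C57BL/6J, and at 1670, 958.4 and 890.0 CPM on CDAHFD and 6173, 2379 and 4704 CPM on ND in ICR. It fell by 2.03 in C57BL/6J (SE 0.26, adjusted p = 2.58e-04) and by 1.91 in ICR (SE 0.43, adjusted p = 0.0139) on the log2 scale.

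Gnmt, which spends methyl groups on glycine rather than using betaine, fell by 2.05 in C57BL/6J (SE 0.34) and by 2.83 in ICR (SE 0.18). Bhmt2, a relative of Bhmt that uses S-methylmethionine, fell by 1.44 in C57BL/6J and 1.12 in ICR, and Slc6a12, a betaine transporter, by 1.41 in C57BL/6J and 1.14 in ICR. These 4 genes stayed called as lower by library size only in both strains. The hepatocyte markers fell beside this list (8 of 10 in each strain), and their part in its fall was not tested. In the list of the CDP-choline and CDP-ethanolamine branches, 4 of 9 genes tested fell and 1 rose in C57BL/6J and 3 of 9 fell in ICR. The genes that fell belong to ethanolamine use. The 1 that rose, named here after its values were seen, was Pcyt1b, which makes CDP-choline like Pcyt1a, with 136 counts over the 3 CDAHFD livers and 9 over the 3 ND livers (log2 fold change 2.91, SE 0.69, adjusted p = 0.00749). In ICR it had 117 counts on CDAHFD and 9 on ND and was not called (adjusted p = 0.0637). Pcyt2, the enzyme that makes CDP-ethanolamine, was at 265.8, 277.1 and 237.5 CPM on CDAHFD and 744.0, 614.9 and 788.7 CPM on ND in C57BL/6J, and at 248.8, 256.0 and 265.9 CPM on CDAHFD and 655.6, 361.1 and 549.1 CPM on ND in ICR. It fell by 1.46 in C57BL/6J and 1.02 in ICR, but by library size only the ICR call was lost (-0.42, adjusted p = 0.172). Etnk2, an ethanolamine kinase, fell by 1.32 in C57BL/6J and 1.09 in ICR, and Etnppl, which breaks down phosphoethanolamine, by 2.89 in C57BL/6J and 2.82 in ICR. Selenoi, which makes phosphatidylethanolamine, fell by 0.68 in C57BL/6J, where library size only left -0.03, and had -0.48 in ICR (adjusted p = 0.0806), which turned to 0.13.

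Of the acyltransferases related to Lpcat3, which was itself not called, 5 of 8 tested in C57BL/6J rose and 1 fell, and 3 of 7 in ICR rose and 2 fell. On the log2 scale Lpcat1 rose by 1.71 in C57BL/6J (SE 0.28) and 1.96 in ICR (SE 0.36), Lpcat2 by 2.11 in C57BL/6J (SE 0.18) and 1.89 in ICR (SE 0.30) and Lpcat4 by 2.02 in C57BL/6J (SE 0.39) and 1.98 in ICR (SE 0.42). Lpcat2, which many immune cells express, was at 17.7, 16.7 and 21.7 CPM on CDAHFD and 4.03, 4.26 and 4.71 CPM on ND in C57BL/6J, and at 10.1, 10.5 and 9.98 CPM on CDAHFD and 1.67, 3.998 and 2.65 CPM on ND in ICR. Mboat2 had 64 counts over the 3 C57BL/6J livers on CDAHFD and 0 on ND, which is at least 10.8-fold higher when the ND group is set to a floor of 3 counts in all. In ICR it had 38 counts on CDAHFD and 4 on ND and did not pass the filter. Macrophage markers rose beside these genes, as did most stellate cell, myofibroblast and cholangiocyte markers, and the part of any cell type was not tested. On CDAHFD the summed CPM of macrophage markers lay at 2086 to 2571 in C57BL/6J and 1735 to 4563 in ICR.

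Among choline transporters, Slc44a4 rose, with 7 counts in C57BL/6J and 16 in ICR over the 3 ND livers of each. It was at 4.43, 0.951 and 2.41 CPM on CDAHFD and 0.105, 0.2301 and 0.0530 CPM on ND in C57BL/6J, and at 6.35, 7.43 and 7.24 CPM on CDAHFD and 0.344, 0.225 and 0.276 CPM on ND in ICR, with log2 fold changes of 4.31 in C57BL/6J (SE 0.75) and 4.61 in ICR (SE 0.28). It is known from epithelial cells. Cholangiocyte markers rose beside it (6 of 8 in C57BL/6J and 7 of 8 in ICR), and their part was not tested. On CDAHFD Slc44a4 was higher in ICR than in C57BL/6J (log2 fold change 1.43, SE 0.44, adjusted p = 0.0457). Summed CPM of the cholangiocyte markers lay there at 937.6 to 1448 in ICR and 792.6 to 2659 in C57BL/6J. Slc22a3, an organic cation transporter, fell by 1.80 in ICR (SE 0.32, adjusted p = 0.00578) and had -0.46 in C57BL/6J (SE 0.23, adjusted p = 0.131), 0.18 by library size only. Slc44a3 and Flvcr2 rose in C57BL/6J, by 0.72 for Slc44a3 and 0.81 for Flvcr2, and had 0.29 (adjusted p = 0.554) and 0.28 (adjusted p = 0.473) in ICR. In all, 4 of 6 choline transport genes tested rose in C57BL/6J, against 26% of all genes. In ICR 1 rose and 2 fell, against 20.1% higher and 16.5% lower of all genes. The list held 9 genes, of which Slc44a2, Slc44a5 and Slc22a2 had too few counts to be tested.

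In the list named phosphatidylcholine breakdown and choline release, 8 rose and 6 fell of 21 in C57BL/6J, and 4 rose and 4 fell of 20 in ICR. Of all genes 26% were higher and 21.2% lower in C57BL/6J, and 20.1% higher and 16.5% lower in ICR. The counts of the list include Pld3 and Pld4 among the genes that rose. Pld3 and Pld4, which bear the name of phospholipase D but are known as lysosomal exonucleases and not as enzymes that split phosphatidylcholine, rose in both strains, Pld3 by 1.67 in C57BL/6J (SE 0.15) and 1.63 in ICR (SE 0.26) and Pld4 by 1.79 in C57BL/6J (SE 0.16) and 1.49 in ICR (SE 0.43). Macrophage markers rose beside them (7 of 9 in C57BL/6J and 6 of 9 in ICR), and their part was not tested. Pla2g4a, a cytosolic phospholipase A2, and Gdpd1, a lysophospholipase D, rose in C57BL/6J by 2.24 and 1.89 (SE 0.25 and 0.26). In ICR they had 1.204 and 0.26 (adjusted p = 0.0992 and 0.552), and by library size only both were called as higher there.

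In the list of 8 genes for phosphatidylcholine transfer and export, 4 fell and 1 rose in each strain. Lcat, a liver enzyme of plasma that moves an acyl chain off phosphatidylcholine, was at 145.3, 196.3 and 156.7 CPM on CDAHFD and 406.8, 521.0 and 427.2 CPM on ND in C57BL/6J, and at 182.8, 201.9 and 199.6 CPM on CDAHFD and 463.8, 684.4 and 654.6 CPM on ND in ICR. It fell by 1.44 in C57BL/6J (SE 0.18) and 1.62 in ICR (SE 0.17). Mttp, which loads lipid onto apolipoprotein B, fell by 1.10 in C57BL/6J (SE 0.18) and 0.88 in ICR (SE 0.17), and Stard10, a phospholipid transfer protein, by 0.97 in C57BL/6J (SE 0.18) and 0.59 in ICR (SE 0.17). By library size only Mttp lost its call in ICR (-0.26) and Stard10 in both strains (-0.33 in C57BL/6J and 0.01 in ICR). Abcb1a, an efflux pump related to the phosphatidylcholine floppase of bile, rose by 3.03 in C57BL/6J (SE 0.25) and 3.15 in ICR (SE 0.27). The floppase itself, Abcb4, named here after its values were seen, was not called in either strain. Its log2 fold changes were -0.02 in C57BL/6J (SE 0.19, adjusted p = 0.932) and 0.27 in ICR (SE 0.21, adjusted p = 0.349).

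**Figure D5:**
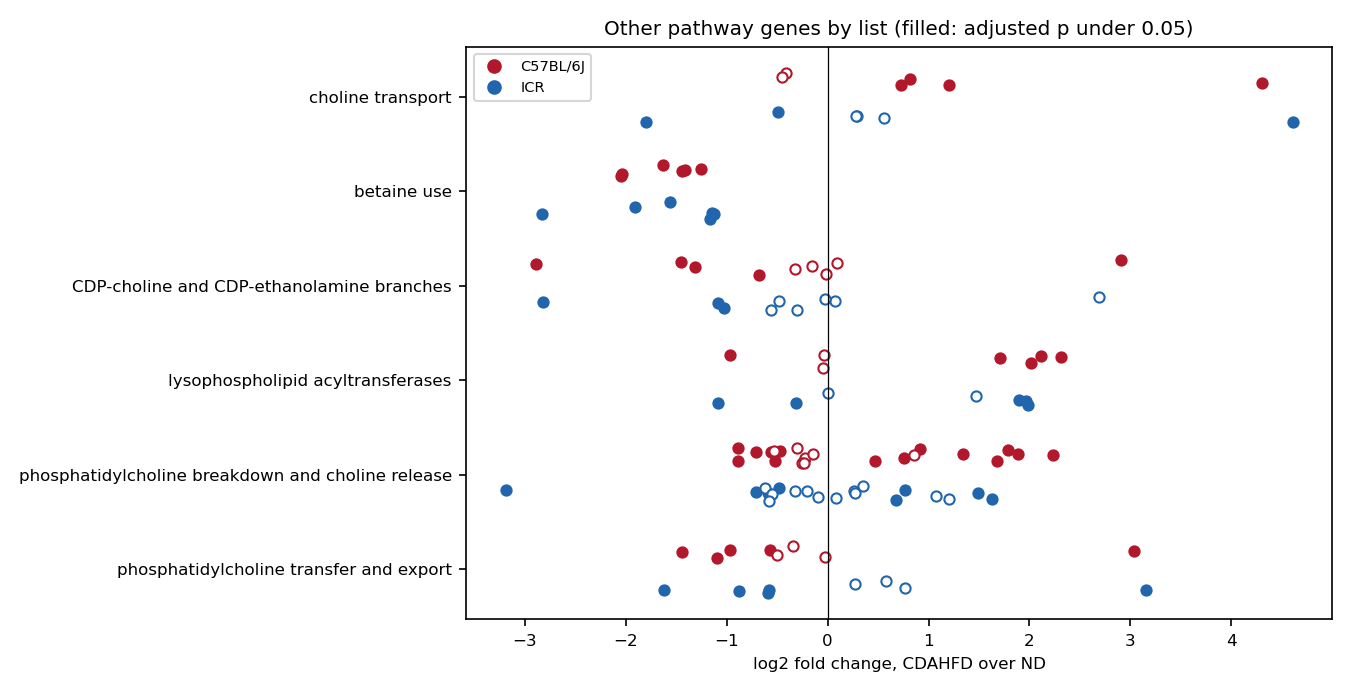
Log2 fold change of CDAHFD over ND for the other pathway genes in 6 lists, in C57BL/6J and ICR (filled where adjusted p was under 0.05). All 6 genes of the list named betaine use lie below 0 in both strains, and Mboat2 in C57BL/6J is left out since it had 0 counts on ND.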

How the data were processed

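The raw gene counts were deposited by the authors, who trimmed reads with fastp 0.23.4, aligned them with HISAT2 2.2.1 and counted them with featureCounts 2.0.6. The build is mm39 per the submitters' processing notes and mm10 per the study's methods. The annotation and the strand setting of counting are not given in the sources used here, and the sources differ on mRNA purification or rRNA depletion. The authors also deposited FPKM, used only to set genes side by side, and 12 CPM columns, which were not used. After 3 repeated lines were dropped, 17710 genes remained.

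The counts were fitted with edgeR 4.0.16 and limma 3.58.1 under R 4.3.3. Genes were kept by filterByExpr (minimum count 10, total 15), scaled by TMM and tested with the quasi-likelihood F test, the diets within a strain (6 libraries), the strains and the strain by diet term over 12 libraries. P values were adjusted by Benjamini-Hochberg over all genes tested and called under 0.05. SE came from the test statistic. The fit was run on simulated data in which a small set of genes was changed, higher or lower with equal probability. That run cannot show how the scaling behaves where as many genes differ as between these diets. Replicates are mice, and no batch was labelled. The paper describes its expression heatmap as corrected for a batch effect but names no batches, and the main fits here hold no batch term. Within groups log2 CPM correlated at 0.955 to 0.99.

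The members and lists were chosen with earlier results of these data known. Named were all members, up to 4 genes per pathway list with the smallest p in a diet comparison, and the 5 genes most correlated with Pemt (log2 CPM, prior count 2). Of 63 pathway symbols 62 were found. Alternatives were other size factors, library size only, other filters, DESeq2 1.42.0, other fits, the replicate number as a block, the study's thresholds (unadjusted p under 0.05 and fold change of at least 2) and leaving out each mouse. Coordinates and gene overlaps are of GRCm38.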

Additional observations from a re-analysis of the deposited data

How the results depend on the processing

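Scaling by library size only called 6 of 10 members in C57BL/6J (4 higher) and gave 2 higher and 1 lower in ICR. Log2 fold changes changed sign in C57BL/6J for Chkb (0.15), Pcyt1a (0.40), Cept1 (0.34), Chdh (0.48), Slc44a1 (0.49), Lpcat3 (0.39) and Slc22a3 (0.18), in ICR for Chkb (0.45), Pcyt1a (0.26), Cept1 (0.41), Chdh (0.37), Slc44a1 (0.24), Lpcat3 (0.35), Selenoi (0.13) and Stard10 (0.014), and for Chka between strains on CDAHFD (-0.015). It called 7608 genes in ICR and 14 in the term of strain by diet, where no filter called 41 and DESeq2 241, with 3 pathway genes. The cause of these shifts was not tested.

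No label pairs the mice by replicate number. Same-numbered mice deviated together with correlations from -0.11 to 0.40, 7 of 12 over 0.1. Not every mouse correlated best with its own number, but replicate 1 did in each pair of groups compared (0.16 to 0.40). Whether same-numbered mice shared a handling step was not tested. With the replicate block 1 member rose in C57BL/6J (Chka, log2 fold change 0.52, SE 0.13, adjusted p = 0.00956). Under the block 11 pathway genes were called between strains on ND and 12 genes for the strain by diet term. The study's thresholds gave 25 pathway genes and 3844 genes in C57BL/6J, 1368 and 1620 genes between strains on CDAHFD and ND, and 6 pathway genes and 730 genes for the strain by diet term, and no longer counted Pemt. Fits of 6 libraries called 2 members between strains on either diet, with 4 pathway genes and 1475 genes on ND.

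Leaving out 1 mouse gave 3 to 4 members called in C57BL/6J (0 to 1 higher), 2 to 5 in ICR (0 to 1 higher, 2 to 5 lower), 1 on CDAHFD and 1 to 4 on ND between strains, and 0 for the strain by diet term. Pathway genes called ranged from 19 to 33 in ICR, 3 to 7 and 3 to 15 between strains on CDAHFD and ND, and 0 to 2 for the strain by diet term. All genes called ranged from 3202 to 5464 in ICR, 760 to 1759 and 1255 to 4234 between strains on CDAHFD and ND, and 6 to 136 for the strain by diet term. Signs of uncalled log2 fold changes turned in C57BL/6J for Slc44a1 (-0.39 to 0.13), in ICR for Slc44a3 (-0.023 to 0.55) and Gdpd1 (-0.004 to 0.49), between strains on CDAHFD for Lpcat3 (-0.061 to 0.21) and Chka (-0.034 to 0.25) and on ND for Chka (-0.65 to 0.27), Pemt (-0.16 to 0.11) and Aldh7a1 (-0.19 to 0.02), and, in the term of strain by diet, for Lpcat3 (-0.22 to 0.10), Slc44a1 (-0.55 to 0.019) and Chka (-0.17 to 0.75).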

Other observations

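Pctp, a phosphatidylcholine transfer protein, had a larger strain difference than any of the 10 genes described above. It lies outside the rule for named genes and was chosen after its values were seen. It was at 12.8, 6.17 and 8.85 CPM in ICR and 78.2, 114.0 and 120.3 CPM in C57BL/6J on CDAHFD, and at 6.44, 3.55 and 6.45 CPM in ICR and 149.4, 123.3 and 170.2 CPM in C57BL/6J on ND. The log2 fold changes of ICR over C57BL/6J were -3.49 on CDAHFD (SE 0.30, adjusted p = 2.74e-05) and -4.75 on ND (SE 0.32, adjusted p = 4.24e-06).

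Gpcpd1, which releases choline from glycerophosphocholine, was also chosen after its values were seen. It was at 29.6, 35.9 and 47.0 CPM on CDAHFD and 155.7, 455.2 and 423.3 CPM on ND in ICR, and at 94.9, 175.9 and 130.2 CPM on CDAHFD and 250.1, 259.5 and 234.7 CPM on ND in C57BL/6J. It fell by 3.19 on the log2 scale in ICR (SE 0.41, adjusted p = 0.00185) and by 0.89 in C57BL/6J (SE 0.21, adjusted p = 0.00752), and the strain by diet term of -2.31 was not called (adjusted p = 0.125).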
